A study of Rattus norvegicus with 18 samples.

Results

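The voltage-gated sodium and calcium channel genes were 36 of the 14217 named genes on a rat Affymetrix array: 12 sodium channel genes (9 α and 3 β subunits) and 24 calcium channel genes (10 α1, 2 α2δ, 4 β and 8 γ subunits). They are all genes with a probe set whose only annotated symbol begins with Cacn, or is Scn followed by a digit and the letter a or b. Of their 52 probe sets among the 31042 measured, 1 per gene was used, the one with the highest mean over the 18 arrays. Each of the 6 groups was dissociated rat hippocampal neurons, transduced by lentivirus on day 3 in culture and harvested on day 10, in 3 biological replicates. In 3 groups the virus carried the control MEF2deltaDBD-VP16-ER, a fusion protein that lacks the DNA-binding domain, and in the other 3 groups it carried MEF2-VP16-ER. Within each construct the groups had been exposed to 4-hydroxytamoxifen (4OHT), the ligand of the ER part, for 0, 1 or 2.5 h. The labels give no promoter for the constructs and no share of transduced cells, and whether the arrays detect the constructs was not tested.

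MEF2 proteins are transcription factors that switch on genes in neurons in response to calcium influx, and the VP16 part of the fusion is a strong transcriptional activator that becomes active when 4OHT binds. Voltage-gated sodium channels, an α subunit that forms the pore with β subunits beside it, carry the rising phase of the action potential. Voltage-gated calcium channels are built on an α1 pore with α2δ and β subunits that set its trafficking and gating, and they admit the calcium that triggers transmitter release and activity-dependent transcription. Several γ subunits serve mainly as partners of AMPA-type glutamate receptors, known as TARPs, rather than of calcium channels.

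The values were deposited intensities on a linear scale. Of the 36 channel genes, 19 lay above the median level of all probe sets and 17 below it. All 9 neuron markers were measured on every array, with Map2 between 11759 and 13892 and Tubb3 between 7273 and 11628. Markers of glia were present too: the summed intensity of 7 astrocyte markers lay between 33347 and 49138 and that of 9 oligodendrocyte-lineage markers between 8254 and 18553. In these mixed cultures fewer cells of a type and less RNA per cell cannot be told apart. Of 7 excitatory neuron markers, Neurod2 and Neurod6 fell in MEF2-VP16-ER neurons between 0 and 2.5 h (log2 changes of -0.65 and -0.66, limma adjusted p = 0.0062 and 0.0158). Their inductions at 2.5 h, -0.75 and -0.55, passed with replicate number as a block (limma adjusted p = 0.00055 and 0.0275) and not without it (0.0736 and 0.521). The 7 markers did not move as one. At 2.5 h 3 of them had a positive induction: Slc17a7 (0.04), Slc17a6 (0.08) and Camk2a (0.35). Within MEF2-VP16-ER neurons 1 of the 7, Camk2a, was higher at 2.5 h than at 0 h (0.15), and Slc17a6 changed by -0.01. The part of cell makeup in the channel results was not tested. Same-numbered replicates deviated together, so results with this block are given where they change a call. The p-values measure the spread between these cultures.

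Most channel genes moved little when MEF2-VP16-ER was activated. The induction at 2.5 h, which subtracts the log2 change since 0 h under the control construct from that under MEF2-VP16-ER, passed limma's test at an adjusted p of 0.05 in 0 of 36 channel genes, against 0.177% of all probe sets. With the replicate block the count was again 0 of 36, against 0.937% of all probe sets. At an unadjusted p under 0.05 there was 1 channel gene, Cacng4, against 4.78% of all probe sets. The inductions were positive in 15 of 36 genes, with a median of -0.03 on the log2 scale, while 51.5% of all probe sets were positive with a median of 0.004, and 48.0% of all named genes at 1 probe set each with a median of -0.005. They ran from -0.71 for Cacng4 to 0.35 for Cacna1h. The median size without regard to sign was 0.09 for the channel genes and 0.07 for all probe sets.

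The intervals show what these arrays could resolve. The 95% interval of the induction lay wholly within a 1.5-fold change in either direction for 27 of 36 channel genes (75%), and for 84.8% of all probe sets. With the replicate block 34 of 36 did so, and all 12 sodium channel genes were among them, where 7 of 12 were without the block. The median standard error over the channel genes was 0.12 log2 units, and 0.10 with the block. When only probe sets above the median level were tested, 12 of 19 channel genes had intervals within 1.5-fold without the block. Fold changes of dim probe sets are understated by the scaling given below.

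**Figure D1:**
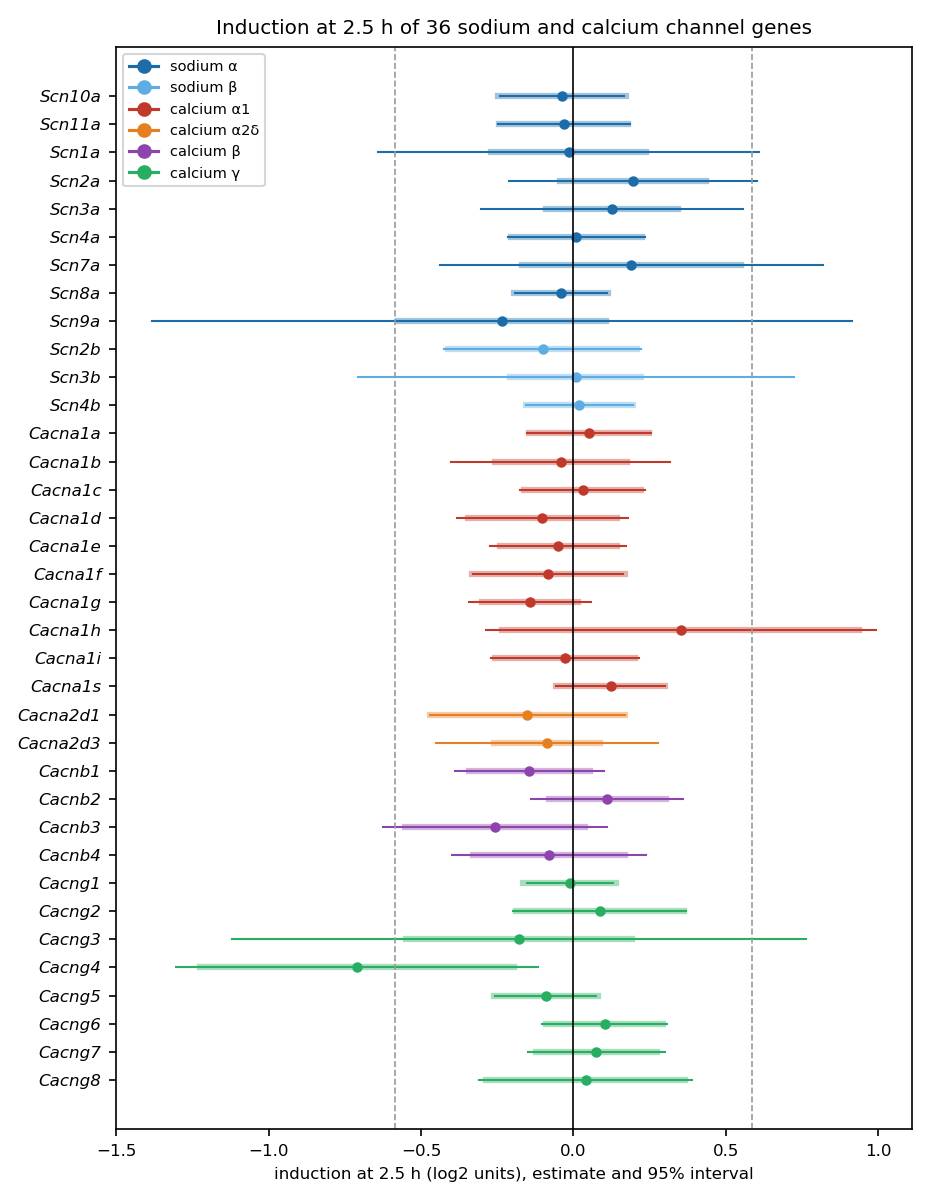
Induction at 2.5 h in log2 units for each of the 36 channel genes, coloured by subunit family; points are estimates, thin lines 95% intervals and pale thick bars the 95% intervals with replicate number as a block, and dashed lines mark a 1.5-fold change. Only the thin line of Cacng4, at -0.71, lies wholly on one side of 0, and the longest thin line is that of Scn9a.

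Among the 9 sodium channel α subunits, 4 had a positive induction at 2.5 h and none passed. Scn2a, the main sodium channel pore of developing excitatory axons, gave 0.20 ± 0.19 (SE), with a 95% interval of -0.21 to 0.60. Its intensities in replicates 1, 2 and 3 were 785, 923 and 793 in control neurons at 0 h and 812, 808 and 652 at 2.5 h, against 867, 919 and 784 in MEF2-VP16-ER neurons at 0 h and 1026, 962 and 713 at 2.5 h. These groups overlap, and replicate 3 was the lowest at 2.5 h with either construct. Scn3a, an α subunit best known from the developing brain, gave 0.13 ± 0.20. In replicates 1, 2 and 3 the inductions were 0.19, 0.26 and 0.14 for Scn2a and 0.12, 0.15 and 0.12 for Scn3a. With the replicate block their SEs were 0.11 and 0.10, and neither gene passed (limma adjusted p = 0.716 and 0.855). Scn1a, the pore associated with fast-spiking inhibitory neurons, gave -0.01 ± 0.29, and Scn8a, the main pore of the mature axon initial segment, -0.04 ± 0.07. The interval of Scn8a, -0.19 to 0.11, was among the narrower ones, but its probe set was dim (50.9 to 60.8 on the 18 arrays). The widest belonged to Scn9a, best known from pain-sensing neurons, at -0.23 ± 0.54 with an interval of -1.38 to 0.91. With the replicate block the interval of Scn9a was -0.57 to 0.11, and that of Scn1a was -0.27 to 0.24.

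The 3 sodium channel β subunits, which modulate gating and act as adhesion molecules, gave inductions of -0.10 ± 0.15 (Scn2b), 0.01 ± 0.34 (Scn3b) and 0.02 ± 0.08 (Scn4b). All 3 intervals include 0, and that of Scn3b, from -0.71 to 0.72, was the widest of the 3. With the replicate block the interval of Scn3b was -0.21 to 0.22.

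Without the replicate block the calcium channel pores had narrower intervals than the sodium channel α subunits, of which 5 of 9 lay within 1.5-fold. This gap did not remain with the block. All 12 sodium channel genes then lay within 1.5-fold, while the interval of the pore Cacna1h, -0.23 to 0.94, did not. Of 10 α1 subunits, 4 had a positive induction at 2.5 h, and 9 had intervals within 1.5-fold. Cacna1a and Cacna1b, the P/Q-type and N-type pores of presynaptic terminals, gave 0.05 ± 0.10 and -0.04 ± 0.17. The L-type pores Cacna1c and Cacna1d, which couple calcium entry to gene expression in neurons, gave 0.03 ± 0.10 and -0.10 ± 0.13. The R-type pore Cacna1e gave -0.05 ± 0.10.

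The T-type pores, which open at low voltage, gave -0.14 ± 0.09 (Cacna1g), 0.35 ± 0.30 (Cacna1h) and -0.03 ± 0.11 (Cacna1i). Cacna1h had the highest estimate of the 36, and its arrays disagreed. Control neurons read 549.8, 702 and 630.0 at 0 h and 651, 559.7 and 423 at 2.5 h in replicates 1, 2 and 3, and MEF2-VP16-ER neurons 526, 441 and 653 at 0 h and 528, 706 and 548 at 2.5 h. All 4 groups overlap, and the induction was -0.23 in replicate 1, 0.98 in replicate 2 and 0.31 in replicate 3. With 1 array or 1 replicate number left out it lay between 0.04 and 0.64. A second probe set of this gene gave 0.09. Cacna1g was steadier, reading 299.8, 294 and 334 in control neurons at 0 h, 306, 348 and 339 at 2.5 h, and in MEF2-VP16-ER neurons 302, 303 and 327 at 0 h and 281, 296 and 323 at 2.5 h, with overlapping groups.

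The skeletal muscle pore Cacna1s (0.12 ± 0.08) and the retinal pore Cacna1f (-0.08 ± 0.12) were dim or moderate on this array. Cacna1s read 54.1, 62.0 and 53.9 in control neurons at 0 h, 55.0, 53.6 and 52.2 at 2.5 h, and in MEF2-VP16-ER neurons 49.4, 56.9 and 54.5 at 0 h and 59.1, 54.2 and 56.4 at 2.5 h. The groups overlap at both times.

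Of the 6 α2δ and β subunits none passed. Both α2δ genes had negative inductions at 2.5 h, Cacna2d1, the binding partner of gabapentin, at -0.15 ± 0.15 and Cacna2d3 at -0.09 ± 0.17. Of the 4 β subunits, which bring the pore to the membrane, Cacnb2 was positive (0.11 ± 0.12) and Cacnb1 (-0.14 ± 0.11), Cacnb3 (-0.26 ± 0.17) and Cacnb4 (-0.08 ± 0.15) were negative. Cacnb3 read 813, 919 and 879 in control neurons at 0 h and 858, 838 and 930.4 at 2.5 h, and in MEF2-VP16-ER neurons 835, 1074 and 942 at 0 h and 619.7, 925 and 871 at 2.5 h. The groups overlap, and replicate 1 of the last group was the lowest of its 18 arrays, with an induction of -0.50 in that replicate against -0.08 and -0.19 in the other two. Cacnb1 read 514, 589.6 and 591 in control neurons at 0 h and 543, 622 and 609 at 2.5 h, and 494, 605 and 523 in MEF2-VP16-ER neurons at 0 h and 489.7, 550.5 and 488 at 2.5 h. Its MEF2-VP16-ER values at the 2 times overlap.

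The channel genes that passed a test in any setting were Cacng4 without replicate 3 and Cacng6 with the replicate block. Both calls were for MEF2-VP16-ER neurons at 2.5 h against 0 h. Without replicate 3 it was 1 of 36, against 127 of the 31042 probe sets. With the block it was 1 of 36, against 2.33% of all probe sets. Both genes are among the 8 γ genes, and a pattern by family was not tested. The other 6 gave inductions at 2.5 h of -0.01 ± 0.07 (Cacng1, of the skeletal muscle channel), 0.09 ± 0.13 (Cacng2, the TARP stargazin), -0.18 ± 0.44 (Cacng3, a forebrain TARP), -0.09 ± 0.08 (Cacng5), 0.08 ± 0.10 (Cacng7) and 0.04 ± 0.16 (Cacng8, a TARP abundant in hippocampus). Cacng5 was dim, reading 80.4, 72.2 and 71.4 in control neurons at 0 h and 74.2, 80.9 and 79.0 at 2.5 h, and 73.9, 73.5 and 77.3 in MEF2-VP16-ER neurons at 0 h and 68.5, 75.9 and 73.4 at 2.5 h, with overlap throughout.

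Cacng4, a TARP, had the lowest induction at 2.5 h. Its intensities in replicates 1, 2 and 3 of control neurons were 230.0, 205 and 179.6 at 0 h, 188, 206 and 243 at 1 h and 171, 230.2 and 283 at 2.5 h. In MEF2-VP16-ER neurons they were 293, 257 and 224 at 0 h, 173, 172 and 259 at 1 h and 132, 156 and 218 at 2.5 h. Every MEF2-VP16-ER array at 2.5 h was below every one at 0 h, by a small margin at the nearest (218 against 224), while the control groups overlap. The induction was -0.71 ± 0.28, a fold of 0.611, with a 95% interval of -1.30 to -0.12, and did not pass (limma adjusted p = 0.856, and 0.302 with the replicate block). It was negative in 3 of 3 replicate numbers, at -0.66, -0.82 and -0.65.

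Within those estimates the 2 constructs contribute differently by replicate. The change in MEF2-VP16-ER neurons from 0 to 2.5 h was -1.06, -0.66 and -0.04 in replicates 1, 2 and 3, and that in control neurons -0.40, 0.15 and 0.61. Over the 3 replicates the change in MEF2-VP16-ER neurons was -0.59 ± 0.20 (limma adjusted p = 0.377, and 0.111 with the replicate block). Without replicate 3, which leaves 2 arrays per group, it was -0.86 ± 0.13 and passed the test (limma adjusted p = 0.0275). In that fit 127 of the 31042 probe sets passed. The Cacng4 call rests on leaving replicate 3 out, which was 1 of 9 leave-out runs of this comparison. At 0 h Cacng4 was 0.31 ± 0.20 higher with MEF2-VP16-ER than with the control construct, a difference that did not pass. Of the 9 oligodendrocyte-lineage markers, 1 had a positive induction at 2.5 h, and their median was -0.17. One of the 9, the lineage factor Olig2, fell in MEF2-VP16-ER neurons between 0 and 2.5 h with the replicate block (-0.42, limma adjusted p = 0.0196) and did not pass without it (0.983). Their sums lay between 10033 and 13891 in MEF2-VP16-ER neurons at 0 h and between 8254 and 15241 at 2.5 h, and in replicate 3 as a whole between 13891 and 18553 against 8254 to 12241 in the other two replicates. The part of these markers, and of Neurod2 and Neurod6 above, in the Cacng4 values was not tested.

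**Figure D2:**
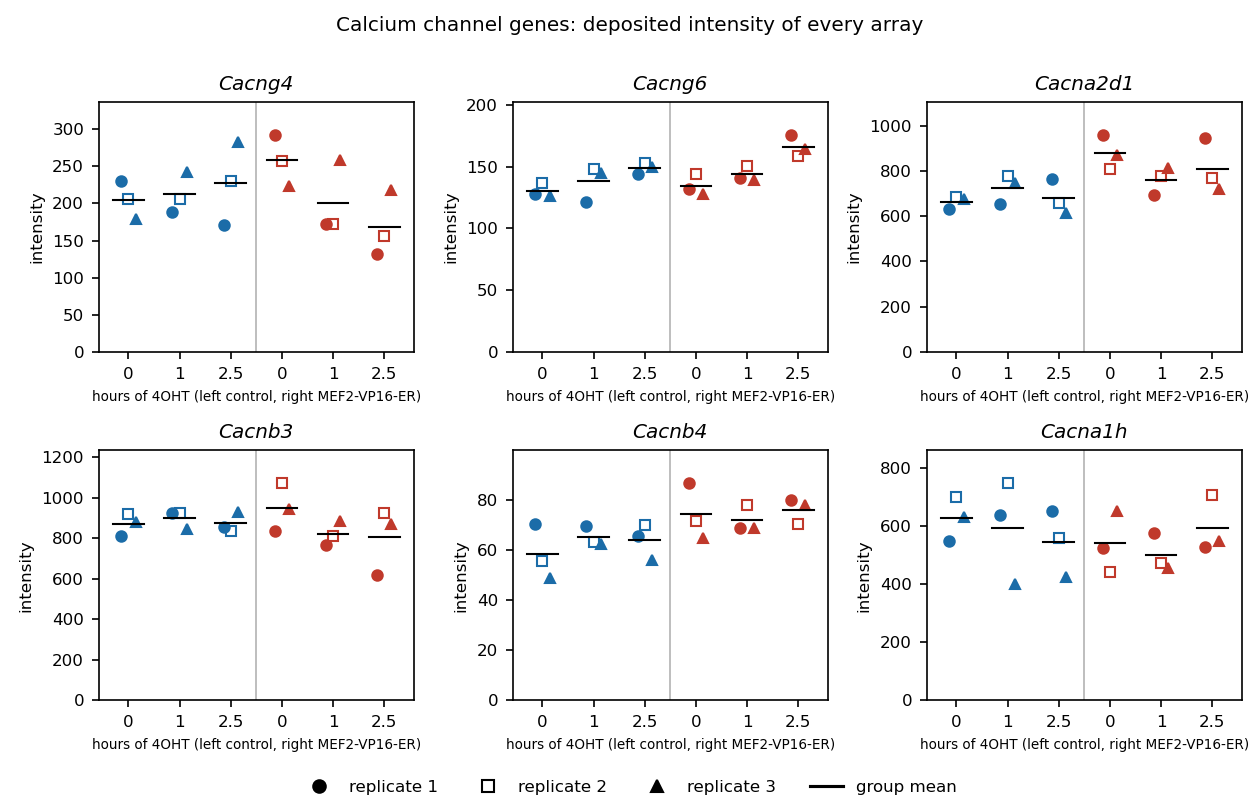
Deposited intensity (linear scale, from 0) of 6 calcium channel genes on all 18 arrays by hours of 4OHT, control construct at the left (blue) and MEF2-VP16-ER at the right (red), with symbols for replicate number and bars for group means. Cacng4 reads 293, 257 and 224 at 0 h and 132, 156 and 218 at 2.5 h in MEF2-VP16-ER neurons, Cacng6 stands highest in MEF2-VP16-ER neurons at 2.5 h, and Cacna2d1 and Cacnb4 start higher with MEF2-VP16-ER at 0 h.

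Cacng6, a γ subunit related to that of the skeletal muscle channel, was the one channel gene to pass any test over all 3 replicates. Control neurons read 128, 136 and 126 at 0 h, 121, 148 and 145 at 1 h and 144, 153 and 149.7 at 2.5 h, and MEF2-VP16-ER neurons 132, 144 and 128 at 0 h, 141, 151 and 139 at 1 h and 176, 158 and 164 at 2.5 h. Arrays at 2.5 h were above those at 0 h with both constructs, without overlap. In MEF2-VP16-ER neurons the change between 0 and 2.5 h was 0.28 ± 0.07, a fold of 1.21 with a 95% log2 interval of 0.13 to 0.42, and missed the threshold without the block (limma adjusted p = 0.0948). With replicate number as a block the same change of 0.28 had an SE of 0.06 and an interval of 0.14 to 0.41, and by that fit the gene rose (limma adjusted p = 0.0300). In that comparison 0 of 36 channel genes passed without the block, against 0.789% of all probe sets (2 of 36 at an unadjusted p under 0.05, against 6.18%), and 1 of 36 with it, against 2.33%. The control change was 0.17 ± 0.07 and did not pass (limma adjusted p of 1.00, rounded). The induction of Cacng6, which tests the difference between the constructs, was 0.10 ± 0.10 with an interval of -0.10 to 0.31 (limma adjusted p of 1.00, rounded), so a difference between the constructs was not detected.

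Cacng6 lies beside Cacng8 and Cacng7 in the RefSeq gene order, as do Cacng1, Cacng4 and Cacng5 beside one another. Its neighbour Cacng8 had the opposite sign in control neurons, -0.18 ± 0.12 between 0 and 2.5 h, reading 167, 151 and 146 and then 124, 139 and 142 without overlap. In MEF2-VP16-ER neurons it gave -0.14 ± 0.12, reading 139.7, 159 and 173 and then 163, 133 and 129.7 with overlap. Neither change of Cacng8 passed, with or without the replicate block. Whether the promoter sequences bear on these changes was not tested. The promoter windows of these neighbours (250 bases before to 50 after the start, RefSeq, build GRCr8, minus strand, written 5′ to 3′) are shown because Cacng6 rose with the replicate block and Cacng8 had the opposite sign. Capitals mark the GC-box core GGGCGG on either strand. Cacng6 is at chr1:74662704-74663003 and Cacng8 at chr1:74690954-74691253.
Cacng6: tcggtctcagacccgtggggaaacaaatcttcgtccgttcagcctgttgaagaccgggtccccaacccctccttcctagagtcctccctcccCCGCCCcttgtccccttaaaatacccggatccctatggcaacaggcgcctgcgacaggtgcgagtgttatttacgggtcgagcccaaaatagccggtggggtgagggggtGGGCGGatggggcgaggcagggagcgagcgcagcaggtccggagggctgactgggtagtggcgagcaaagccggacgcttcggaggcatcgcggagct
Cacng8: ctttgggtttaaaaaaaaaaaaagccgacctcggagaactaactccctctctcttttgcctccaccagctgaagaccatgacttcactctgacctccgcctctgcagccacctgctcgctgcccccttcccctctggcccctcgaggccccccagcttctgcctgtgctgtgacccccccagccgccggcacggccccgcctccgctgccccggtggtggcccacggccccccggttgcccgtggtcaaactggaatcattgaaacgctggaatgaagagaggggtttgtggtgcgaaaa
The Cacng6 window holds 2 such cores and is 63.7% G or C, and the Cacng8 window holds 0 and is 61.7% G or C. RefSeq windows were found for 26 of the 36 genes, 29 windows in all. The GC-box core was in 51.7% of them, against 33.1% of all 33469 windows, and the E-box core CANNTG in 69%, against 72.1%. Counted by gene, these cores were in 13 and 20 of 26. The windows of Cacna2d1 overlap, and each held the GC-box core. The MEF2 consensus and the CRE core TGACGTCA were in 0 of 29, against 3.29% and 1.83% of all windows. Both strands were searched, the motifs may overlap, and these matches say nothing of binding.

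The induction at 1 h passed in 0 of 36, against 0.00322% of all probe sets, and in 0 of 36 with the replicate block, against 0.029%. At an unadjusted p under 0.05 there were 2 of 36, against 4.7% of all probe sets. The estimates were positive in 14 of 36, with a median of -0.06, against 44.1% of all probe sets with a median of -0.02, and 37.8% of all named genes at 1 probe set each with a median of -0.04. The median size without regard to sign was 0.11, larger than the 0.09 at 2.5 h, and 0.09 for all probe sets. Calcium channel genes were positive in 7 of 24 and sodium channel genes in 7 of 12.

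The smallest p-values at 1 h belonged to 4 calcium channel genes. Cacna1a gave 0.22 ± 0.10 (limma adjusted p = 0.996), reading 385, 399 and 438 in control neurons at 0 h and 358, 359 and 390.2 at 1 h, against 376, 364 and 369.6 in MEF2-VP16-ER neurons at 0 h and 366, 419.7 and 397 at 1 h. Both pairs of groups overlap, and the sign comes from control arrays that are lower at 1 h as well as from MEF2-VP16-ER arrays that are higher. The other probe sets of Cacna1a, all dimmer, gave inductions at 1 h of -0.06, -0.0002, 0.11 and 0.02. Cacna2d1 gave -0.33 ± 0.15, Cacna1f -0.24 ± 0.12 and Cacng1 -0.14 ± 0.07. For Cacna1f, MEF2-VP16-ER neurons read 167, 178 and 166 at 0 h and 166, 142 and 151 at 1 h, and control neurons 156, 167 and 165 and then 157, 178 and 189.6. For Cacng1 the MEF2-VP16-ER values were 48.4, 51.5 and 46.8 and then 44.7, 41.8 and 43.7, and the control values 46.1, 47.2 and 47.9 and then 44.6, 49.0 and 48.7. The MEF2-VP16-ER values at 1 h were below those at 0 h without overlap for both, barely so for Cacna1f, and the control values overlap.

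Between 1 h and 2.5 h the induction changed in 0 of 36 channel genes, against 0.0419% of all probe sets, and in 0 of 36 with the replicate block, against 0.399%. At an unadjusted p under 0.05 there was 1, Cacnb2, against 3.92%. For this β subunit the 2 inductions differed by 0.25 ± 0.12 (limma adjusted p of 1.00, rounded, and 0.463 with the replicate block). Its MEF2-VP16-ER arrays read 373, 380.0 and 368 at 0 h, 358, 394 and 326 at 1 h and 447, 411 and 380.4 at 2.5 h, with the last group just above the first. The control arrays read 332, 368 and 301, then 367, 362 and 334, then 368, 326 and 325, and overlap throughout.

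In MEF2-VP16-ER neurons alone, values at 2.5 h stood above those at 0 h without overlap for Cacnb2 and Cacng6 (2 of 36, against 5.76% of all probe sets) and below for Cacng4 (1 of 36, against 5.53%). At 1 h they stood above for Scn10a (1 of 36, against 4.4%) and below for Cacna1f and Cacng1 (2 of 36, against 5.43%). No channel gene passed at 1 h in these neurons, against 0.0354% of all probe sets without and 0.187% with the replicate block, and 1 of 36 had an unadjusted limma p under 0.05, against 4.17%.

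**Figure D3:**
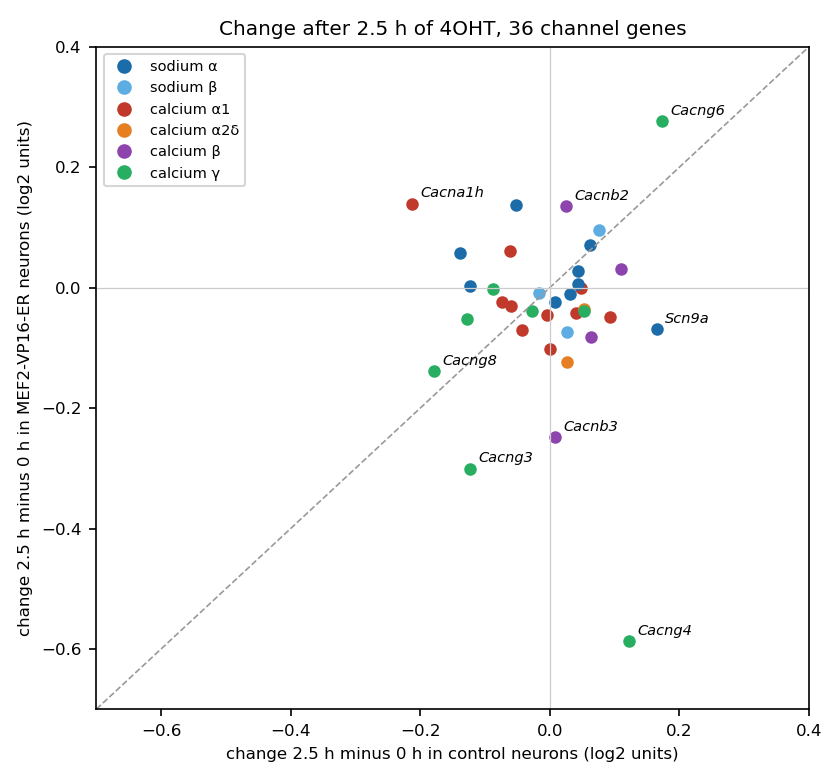
Log2 change between 0 and 2.5 h of 4OHT in control neurons (horizontal) and in MEF2-VP16-ER neurons (vertical) for the 36 channel genes, coloured by subunit family, with the diagonal of equal change dashed. Cacng4, at 0.12 and -0.59, lies farthest from the diagonal, and Cacng6, at 0.17 and 0.28, is higher after 4OHT with both constructs.

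With the control construct, 4OHT changed no channel gene past the threshold. Between 0 and 2.5 h, limma called 0 of 36 channel genes, against 0% of all probe sets, and with the replicate block 0 of 36, against 0.00322%. An unadjusted p under 0.05 was reached by 1 channel gene, Cacng6, against 2.15% of all probe sets. Values did not overlap for Cacng6 (higher, 1 of 36 against 2.11%) and Cacng8 (lower, 1 of 36 against 4.04%). Cacng7 gave -0.13 ± 0.07, reading 108, 112 and 110.4 at 0 h and 91.8, 109.7 and 97.7 at 2.5 h, with overlap. Cacna1g gave 0.09 ± 0.07, also with overlap. Between 0 and 1 h limma called 0 of 36, against 0% of all probe sets with and without the block, and 0 of 36 had an unadjusted p under 0.05, against 2.71%. There the α1 genes Cacna1c, Cacna1d and Cacna1e were higher at 1 h without overlap (3 of 36, against 2.62%), and 0 of 36 were lower (4.45%).

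Before 4OHT the 2 constructs were also compared. Limma called 0 of 36 channel genes at 0 h, against 0% of all probe sets, and 0 of 36 with the replicate block, against 0.00322%. At an unadjusted p under 0.05 there were 3 of 36, against 8.81% of all probe sets. Cacna2d1 was 0.40 ± 0.11 higher with MEF2-VP16-ER, reading 959.9, 811 and 872 against 629.9, 683 and 677 with the control construct. These groups stand well apart, with a fold of 1.32 and a 95% log2 interval of 0.17 to 0.63, but the gene did not pass (limma adjusted p = 0.426, and 0.178 with the replicate block).

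The readings of Cacna2d1 lay closer together at the later times. At 1 h the readings were 696, 779 and 812 with MEF2-VP16-ER and 654, 779 and 746 with the control construct, and at 2.5 h 945, 768 and 719 against 764, 659.9 and 612. The groups overlap at both times. Its induction at 1 h of -0.33 therefore starts from the gap at 0 h, and the constructs compared at 1 h alone differed by 0.069, with the opposite sign.

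Cacnb4, a β subunit of brain calcium channels, was 0.29 ± 0.11 higher with MEF2-VP16-ER at 0 h (limma adjusted p = 0.473, and 0.198 with the replicate block). It read 86.9, 71.8 and 64.8 against 70.2, 55.8 and 48.7, so the groups overlap although each replicate number was higher with MEF2-VP16-ER. Cacng7 was -0.18 ± 0.07 lower, at 96.1, 90.3 and 99.2 against 108, 112 and 110.4, and Cacna1a -0.13 ± 0.07, at 376, 364 and 369.6 against 385, 399 and 438. Groups at 0 h did not overlap for Cacna2d1 and Cacna1d (higher, 2 of 36 against 8.06%) and for Cacng7 and Cacna1a (lower, 2 of 36 against 9.37%).

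In 9 of 36 channel genes (25%), against 20.1% of all probe sets, replicate number accounted for more of the sum of squares of the log2 values across the 18 arrays than group and remainder together. These 9 were 6 of 12 sodium channel genes and 3 of 24 calcium channel genes, and the pattern was chosen after its values were seen. Scn3b had a share of 87.9%, Scn9a 82.7%, Scn1a 67.0%, Scn3a 65.0%, Scn7a 65.0% and Scn2a 56.9%. The calcium channel genes were Cacng3 at 73.3%, Cacna2d3 at 68.0% and Cacna1b at 67.3%. Over all 36 the median share was 17.6%, against 21.2% over all probe sets. Of the sodium channel α genes, Scn3a and Scn2a neighbour each other in RefSeq, as do Scn1a, Scn9a and Scn7a, and all 5 are among these genes.

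Replicate 3 was the lowest of its group in 6 of 6 groups for Scn1a, Scn3a, Scn3b, Scn9a and Cacnb2, 5 of 36 channel genes (13.9%) against 6.19% of all probe sets. Scn3b lay between 3230 and 4004 in replicate 3, against 4657 to 5780 in replicate 1 and 4406 to 5311 in replicate 2. For Scn9a the ranges were 62.5 to 74.2 in replicate 3, 121 to 178 in replicate 1 and 92.1 to 169.8 in replicate 2. For Scn3a they were 1022 to 1164, 1274 to 1620 and 1195 to 1489. Replicate 3 thus stood apart from both other cultures for these 3 genes, whichever construct or time was measured. The summed neuron markers did not part the same way, at 56275 to 61285 in replicate 3 against 55362 to 60303 in replicate 1 and 57720 to 64200 in replicate 2. The summed oligodendrocyte-lineage markers were highest in replicate 3, as given beside Cacng4, and the summed astrocyte markers were 33347 to 35318 there, against 42739 to 49138 in replicate 1 and 33463 to 35705 in replicate 2. Among the other marker sums, those of microglia and of fibroblasts and vessels were low in replicate 3. Microglia markers summed to 1028 to 1136 there, against 1211 to 1456 in replicate 1 and 1136 to 1266 in replicate 2, and fibroblast and vessel markers to 1023 to 1286, against 1265 to 1658 and 1347 to 1655. Inhibitory neuron markers summed to 3802 to 4502 in replicate 3 and 3638 to 4584 in replicate 2, against 4593 to 5191 in replicate 1, so replicate 3 was not alone. Excitatory neuron markers overlapped between the replicates, at 8925 to 14159 in replicate 3, 10476 to 13441 in replicate 1 and 11105 to 14914 in replicate 2. The part of these markers in the sodium channel values was not tested.

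**Figure D4:**
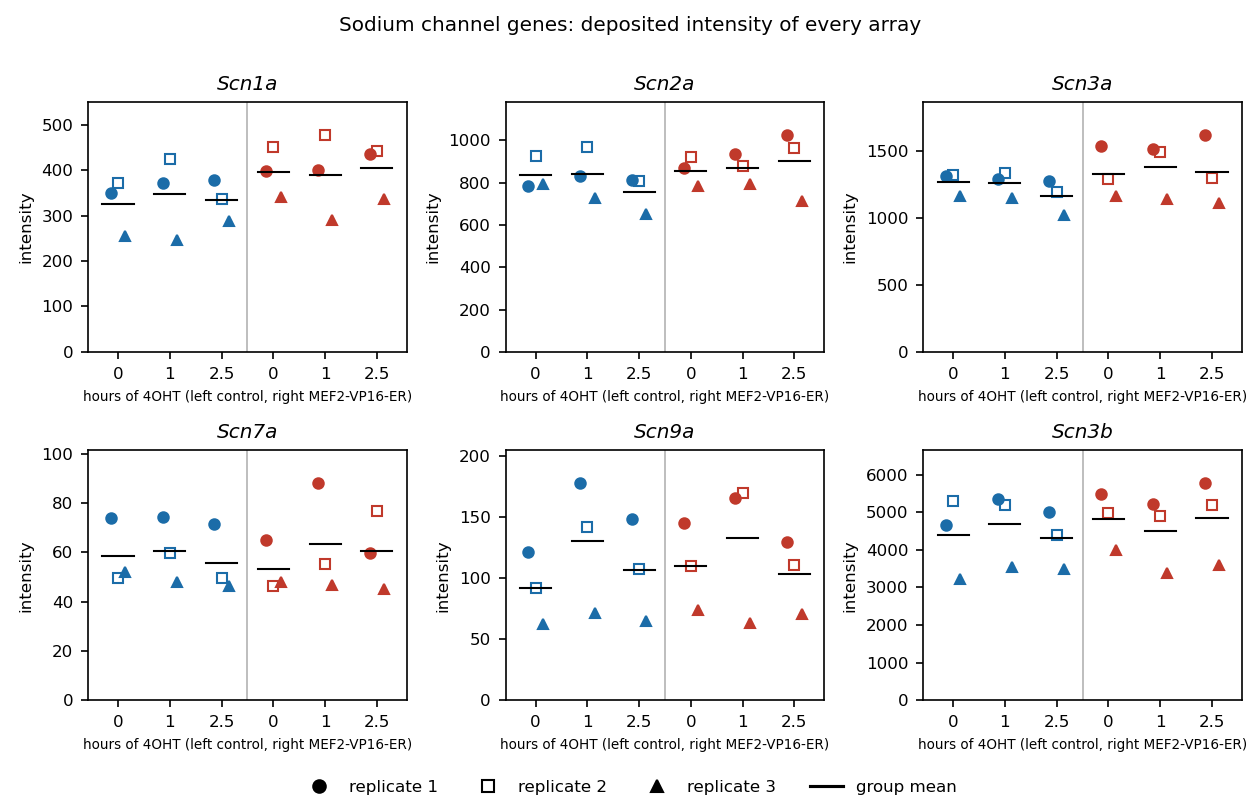
Deposited intensity (linear scale, from 0) of the 6 sodium channel genes with the largest share of variation by replicate number, on all 18 arrays by hours of 4OHT, control construct at the left (blue) and MEF2-VP16-ER at the right (red), with symbols for replicate number and bars for group means. Triangles, replicate 3, lie lowest in all 6 groups for Scn1a, Scn3a, Scn9a and Scn3b.

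Partners of the channels were read from lists written for these families, with earlier results of these data known. Of 22 sodium channel accessory genes (the intracellular FGFs, ankyrins, adhesion molecules and NALCN complex), 18 were measured. At 2.5 h 10 had a positive induction (55.6%) with a median of 0.05, against 48.0% of all named genes with a median of -0.005. Without the replicate block 0 passed, against 0.177% of all probe sets, and with it 0, against 0.937%. The largest inductions were those of Fgf14, which binds the sodium channel C-terminus, at 0.17 ± 0.14, Unc80 of the sodium leak channel complex at 0.15 ± 0.22, and the ubiquitin ligase Nedd4 at 0.14 ± 0.13.

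Of 23 calcium channel accessory genes 19 were measured. At 2.5 h 13 had a positive induction (68.4%) with a median of 0.02, against 48.0% of all named genes with a median of -0.005. The count that passed was 0 without the block, against 0.177% of all probe sets, and 0 with it, against 0.937%. Rrad, a small GTPase that binds β subunits and inhibits calcium channels, gave 0.50 ± 0.20 (limma adjusted p = 0.879). The calcium buffer calbindin, Calb1, gave 0.34 ± 0.09 (limma adjusted p = 0.287, and 0.0562 with the replicate block), and the calcium-binding protein Cabp1 -0.40 ± 0.13. Between 0 and 2.5 h the change was positive in 8 of the 19 genes with MEF2-VP16-ER and in 6 with the control construct. Within MEF2-VP16-ER neurons 3 of the 19 rose between 0 and 2.5 h with the replicate block, against 2.33% of all probe sets: Rrad by 0.61, Calb1 by 0.28 and Akap5, the scaffold that tethers kinases to L-type channels, by 0.23 (limma adjusted p = 0.0052, 0.0100 and 0.0435). Without the block 0 of the 19 passed, against 0.789% of all probe sets (limma adjusted p = 0.0650, 0.0572 and 0.0650 for these 3). The whole list was written with earlier results of these data known, and Akap5 was named after its values were seen. The counts of this list are therefore not independent of those results. The mean intensity of Rrad in MEF2-VP16-ER neurons was 51.9 ± 1.34 (SD, n = 3) at 0 h and 89.5 ± 27.2 at 2.5 h, and that of Calb1 was 1471 ± 86.9 and 1796 ± 177. The induction of Calb1 was also higher at 2.5 h than at 1 h, by 0.52 ± 0.09, past the threshold with the replicate block (limma adjusted p = 0.0066) and not without it (0.0763), 1 of the 19 against 0.399% of all probe sets.

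Downstream of the channels, all 32 calcium signalling genes on the list (CaM kinases, calcineurin and NFAT, calcium release channels, pumps and exchangers) were measured. Their inductions at 2.5 h were positive in 25 of 32 (78.1%) with a median of 0.08, against 48.0% of all named genes with a median of -0.005. None passed, against 0.177% of all probe sets without and 0.937% with the replicate block, and a shared rise of the list was not tested. The largest inductions belonged to Rcan2, a calcineurin regulator, at 0.44 ± 0.26, the kinase subunit Camk2a at 0.35 ± 0.31, and the transcription factor Nfatc1 at 0.30 ± 0.25. Between 0 and 2.5 h the change was positive in 21 of 32 with MEF2-VP16-ER (median 0.03) and in 11 of 32 with the control construct (median -0.03). Among all named genes these shares were 46.9% and 50.7%. The induction of the list at 1 h was positive in 11 of 32.

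Other probe sets were available for 11 of the 36 genes. Their inductions at 2.5 h ranged from -0.10 to 0.09 for the 3 of Cacna1d, from -0.04 to 0.06 for the 5 of Cacna1a, from 0.08 to 0.15 for the 3 of Cacnb2 and from -0.03 to 0.26 for the 2 of Cacna1i. Cacng4 and Cacng6 each had 1 probe set, so no other probe set could be set beside their values.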

How the data were processed

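Expression was measured on 18 Affymetrix arrays, 3 per group, grouped and numbered as the sample labels give them. The authors deposited 1 intensity per probe set and array on a linear scale; the summary and normalization methods are not given in the sources used here. Array upper quartiles lay between 639 and 715. Deposited values were used without further normalization as log2(intensity + 16), so fold changes of dim probe sets are understated. After 57 control probe sets were left out, all 31042 others were tested without a filter: 20826 carried 1 symbol, 436 several and 9780 none. All 36 symbols were found in RefSeq.

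One limma model held 6 group means, with 12 residual degrees of freedom and a prior of 2.89. In it 8 contrasts were tested with Benjamini-Hochberg adjustment over all probe sets, at 0.05. Errors are standard errors of log2 values unless marked SD, and intervals are from the moderated test. The number of arrays limits precision. Residuals of same-numbered arrays correlated above 0.1 in 44 of 45 pairs, the lowest being 0.0677, for replicate 2 of the MEF2-VP16-ER groups before and 1 h after 4OHT. The numbers were therefore taken to pair the groups, which comes from the values, not from the labels. The block was fitted in all 8 contrasts. Where MEF2-VP16-ER at 1 h is compared with 0 h, blocked results rest on a weaker pairing in replicate 2. Members and lists were chosen with earlier results of these data known. Arrays are shown for genes past the threshold with or without the block, for the 8 smallest p-values of the induction at 2.5 h, and for the 4 smallest at 1 h, in control neurons and at 0 h. From each list, genes past the threshold with or without the block are named, and from the 3 lists of channel partners and calcium signalling also the 3 largest inductions at 2.5 h. Alternatives were other scalings, pseudocounts, filters, probe set choices, eBayes settings, fewer groups, the block, and left-out arrays. The steps were tested on simulated data. Models were fitted with limma 3.58.1 under R 4.3.3, and figures drawn with matplotlib 3.10.9 under Python 3.11.15.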

Additional observations from a re-analysis of the deposited data

How the results depend on the processing

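The count of channel genes past the threshold was 0 in the main setting and under every alternative run for 7 of the 8 comparisons. For MEF2-VP16-ER neurons at 2.5 h against 0 h it was 1 with the replicate block (Cacng6, with a change of 0.28) and 0 to 1 when arrays or a replicate number were left out (1 without replicate 3, Cacng4). The block changed no other call among the channel genes. The count of genes with an induction interval within 1.5-fold, 27 of 36, was 12 of the 19 tested when only probe sets above the median level were used. That setting leaves out 17 of the 36 genes by construction. Leaving out arrays gave 23 to 29. The median induction over the genes ranged from -0.07 to 0.03 at 2.5 h and from -0.09 to -0.003 at 1 h over left-out arrays, so its sign at 2.5 h is not stable, and at 1 h it was -0.11 with only probe sets above the median level. The induction of Cacna2d1 at 1 h was 0.069, with its sign reversed, when the constructs were compared at 1 h without subtracting 0 h, where the difference at 0 h drops out by construction. For single named genes, 451 further values kept direction and side of the threshold. The dimmest probe sets, where the pseudocount most understates changes, were those of Cacng1, Cacna1s, Scn8a, Scn7a, Cacnb4, Cacng5 and Scn4a.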
